A study of Drosophila melanogaster with 8 samples.

Results

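The genes described here are 10 regulators that give the photoreceptors and cone cells of the Drosophila eye their individual fates: ro, svp, salm, salr, B-H1, B-H2, lz, pros, phyl and sina. They were chosen by name for this known role and not by a rule on their values, though earlier results of these data were known. They are 10 of the 15682 genes in the count tables. RNA was measured in eye discs, larval epithelia that form the eye and antenna of the adult, taken from Drosophila melanogaster larvae of the last instar, raised on standard medium at 25 °C with no drug or other agent. The labels give 4 stocks of 2 biological replicates, or 8 libraries, each from 30 to 50 pooled discs. Wild type is Canton S; mir-11 KO(w-), below the knockout stock, is labelled as a knockout of mir-11; RMCE-1 and RMCE-2 are stocks of the region that holds the neighbouring microRNA genes mir-11 and mir-998. RMCE is the usual short form of recombinase-mediated cassette exchange, which places a chosen sequence at a prepared genomic site, and the sources used here do not say what was inserted in each stock. The series sets wild type against miR-998 expression that is unchecked without saying which stock this is, so all 6 pairs of stocks were compared. Effects of the strain background and of the microRNA region cannot be told apart in comparisons with Canton S.

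In the eye disc, a wave of differentiation called the morphogenetic furrow crosses the tissue and leaves rows of clusters that each recruit photoreceptors in a fixed order, R8 first, then the pairs R2 and R5, R3 and R4, and R1 and R6, and last R7, followed by the cone cells. The Egfr and Sevenless receptors, acting through Ras, and the Notch receptor give the recruiting signals, and the transcription factors a cell holds when it is signalled decide which type it becomes. Rough (ro) acts in R2 and R5 and in the furrow; Seven-up (svp) in R3, R4, R1 and R6; the spalt genes salm and salr in R3 and R4 of the larval disc and later in R7 and R8; the Bar genes B-H1 and B-H2 in R1 and R6. Lozenge (lz), a Runx factor, acts in the late-recruited cells, where it helps switch on the Bar genes and pros, the R7 and cone cell gene Prospero. Phyllopod (phyl) is an adaptor that joins the ubiquitin ligase Sina (sina) to the repressor TTK88, so that TTK88 is degraded in R1, R6 and R7.

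All 10 genes were detected in every library, with between 98 reads (ro in RMCE-1 replicate 2) and 5008 reads (pros in Canton S replicate 1). Library totals ran from 11929158 to 19670470 reads in genes. The tissue label was checked against 7 eye field genes (ey, toy, so, eya, dac, eyg and Optix), all of which were at 23.8 CPM or more in every library (a gene's reads as a share of its library, here with totals scaled by the TMM method), and against 8 genes of differentiating photoreceptors, whose summed level was 1320 to 1707 CPM. Antennal genes were present too, at 237 to 292 CPM in sum. The knockout label could not be checked from the microRNA genes themselves, since mir-11 had 0 to 2 reads and mir-998 9 to 31 reads per library. Libraries such as these keep few short RNAs, so the reads speak to precursors at most.

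Per length of exon, which is the scale on which genes can be compared, the 10 genes lay between 5.77 and 20.9 CPM per kb in Canton S. The highest levels were those of sina, 20.9 ± 0.53 CPM per kb (SD, n = 2 here and below), and B-H2, 20.3 ± 0.62, and these did not differ beyond their spread. The Runx gene lz followed at 17.0 ± 2.35 CPM per kb, then B-H1 at 11.4 ± 1.00 and salm at 10.4 ± 0.71, a neighbouring pair within their spread. The gene salr at 8.22 ± 0.14 and phyl at 8.14 ± 0.43 CPM per kb were also not separable. The lowest were ro at 6.35 ± 0.33 and svp at 5.77 ± 0.02 CPM per kb, whose libraries did not overlap, while pros at 6.58 ± 4.74 was too variable to place. The exon lengths are those of the union of exons in the Ensembl annotation of BDGP6.54, 24892 bp for pros, so a gene that uses only its shorter transcripts in the disc is understated.

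**Figure D1:**
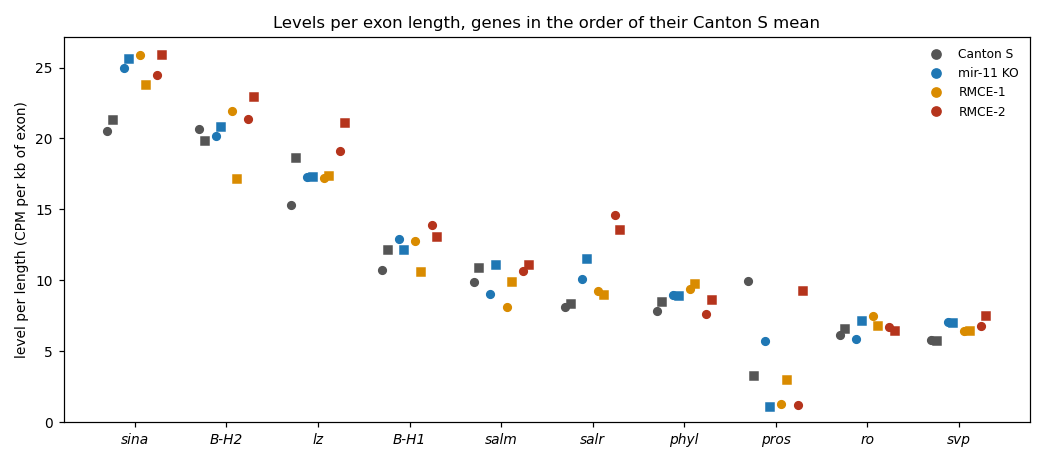
Level per kb of exon of each of the 10 genes in all 8 libraries (CPM per kb of exon, linear axis from 0; circles replicate 1, squares replicate 2, colours the 4 stocks), with genes in the order of their Canton S mean. The salr points climb from 8.22 in Canton S to 14.1 CPM per kb in RMCE-2 on average, and those of pros are spread widely within every stock.

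Between stocks, salr was the only one of the 10 genes that changed by edgeR's quasi-likelihood test with Benjamini-Hochberg adjustment over the 11068 genes tested (called at an adjusted p under 0.05). In the test for any difference among the 4 stocks 1 of 10 was called, beside 5.48% of all genes tested. Against Canton S, 1 of 10 was called in the knockout stock (4.75% of all genes), 0 of 10 in RMCE-1 (6.06%) and 1 of 10 in RMCE-2 (3.6%). Between RMCE-1 and the mir-11 knockout the count was 0 (0.352% of all genes), between RMCE-2 and the knockout stock 0 (0.578%), and between RMCE-2 and RMCE-1 it was 1 (1.68%). A count of 0 or 1 of 10 is close to these background shares, so it says nothing particular about the genes as a group. At an unadjusted p under 0.05, each of the 3 counts of 0 stood at 1 of 10 (beside 23.2%, 9.03% and 13.2% of all genes), and DESeq2 called 0, 0 and 1 there, the 1 being salr in RMCE-2 against the knockout stock.

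The sizes of the differences lay near those of genes in general. The median absolute log2 fold change of the 10 genes was 0.131 in the knockout stock against Canton S, where all genes tested had 0.175, and it was 0.16 beside 0.195 in RMCE-1. In RMCE-2 it was 0.24 beside 0.166, the one comparison with Canton S in which the fate genes were above the general level. They were also above it in RMCE-2 against RMCE-1 (0.21 beside 0.157). Against the knockout stock they were below it in RMCE-1 (0.117 beside 0.124) and in RMCE-2 (0.116 beside 0.147). Signed, the median log2 fold change of the 10 against Canton S was 0.08 with the mir-11 knockout, 0.09 for RMCE-1 and 0.18 for RMCE-2, comparisons that share the Canton S libraries. Libraries of the stocks did not overlap for 4, 7 and 6 of the 10 genes in those comparisons, beside 59.3%, 51.7% and 51.4% of all genes. They did not overlap for 3 genes between RMCE-1 and the knockout stock (39.5% of all genes), 5 between RMCE-2 and the knockout stock (50.3%) and 7 between both RMCE stocks (41.8%).

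**Figure D2:**
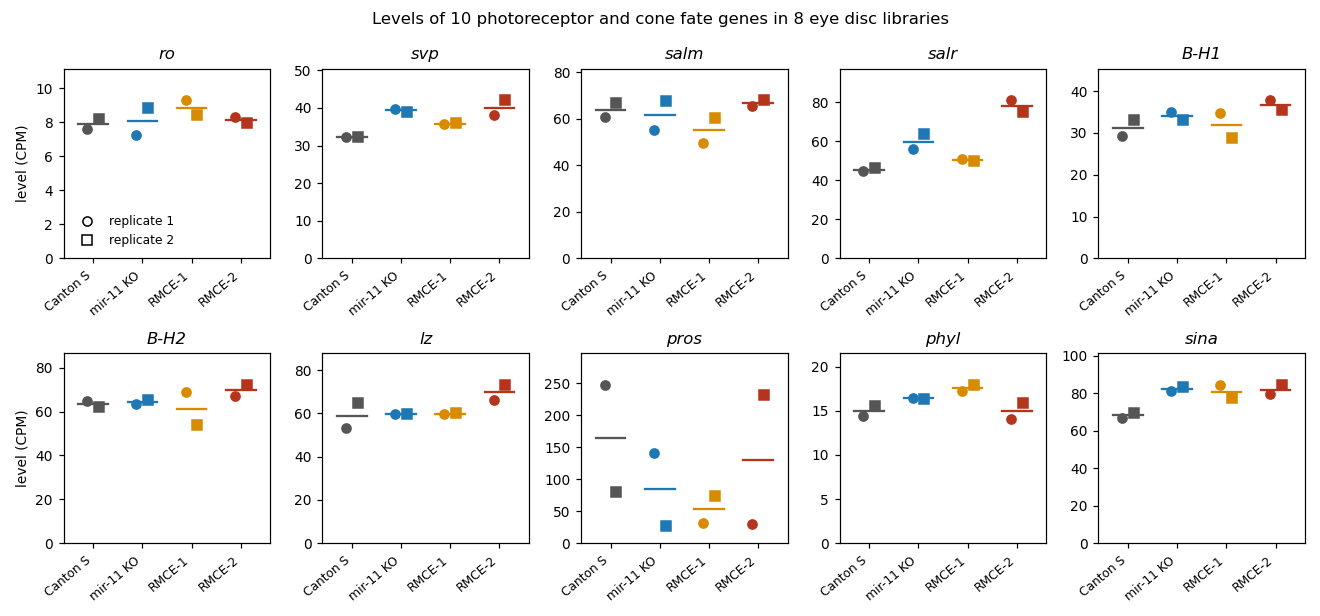
Level (CPM, linear axes from 0, a scale of its own in each panel) of the 10 genes in every library, with circles for replicate 1, squares for replicate 2 and a line at the mean of each stock's 2 libraries. RMCE-2 holds the highest salr points, 75.0 and 81.0 CPM, and in pros the replicates of each stock lie far apart.

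The spalt genes salm and salr encode closely related zinc finger proteins and lie on arm 2L, salr at 2L:11358873-11373636 on the plus strand and salm at 2L:11434311-11445614 on the minus strand, 60.7 kb apart with no other protein-coding gene between them. These and all later coordinates are those of BDGP6.54; the sources used here do not give the authors' build. Canton S had 44.9 and 46.0 CPM of salr in its replicates. The knockout stock had 55.9 and 63.7 CPM. RMCE-1 had 51.1 and 49.7 CPM, and RMCE-2 had 81.0 and 75.0 CPM. Every one of the 6 other libraries was above both of Canton S, as held for 12.3% of all genes tested, and the RMCE-2 libraries were above all the rest. In bulk tissue, fewer cells of a type and less RNA per cell cannot be told apart, for salr as for the other genes. In RMCE-2 against Canton S the log2 fold change of salr was 0.78 (SE 0.08, 95% interval 0.59 to 0.97, adjusted p = 0.00482), and salr rose 0.63 above RMCE-1 (SE 0.08, adjusted p = 0.0192). The rise in the knockout stock against Canton S was 0.39 (SE 0.08, adjusted p = 0.0410). Between RMCE-1 and Canton S the difference of 0.15 did not pass (adjusted p = 0.315), nor did that of 0.38 between RMCE-2 and the knockout stock (adjusted p = 0.109, but called by DESeq2).

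The RMCE-2 rise of salr over Canton S was called under every alternative tried, with log2 fold changes of 0.73 to 0.84 and adjusted p from 0.00741 to 0.0400 when single libraries were left out. The knockout rise was not called without Canton S replicate 1 (adjusted p = 0.198) or 2 (0.112), without replicate 1 (0.105) or 2 (0.294) of the knockout stock, or without RMCE-2 replicate 1 (0.0556) or 2 (0.064). The rise over RMCE-1 was not called without RMCE-2 replicate 1 (adjusted p = 0.103) or 2 (0.0881), RMCE-1 replicate 2 (0.0701), or replicate 1 (0.0542) or 2 (0.0552) of the knockout stock, nor with only the 2 RMCE stocks fitted (0.121). With both Canton S replicate 1 and RMCE-1 replicate 2 left out, the knockout rise had an adjusted p of 0.154 and the rise over RMCE-1 one of 0.107.

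The paralogue salm showed no such order. Its levels were 60.6 and 66.7 CPM in Canton S, 55.3 and 67.7 with the mir-11 knockout, 49.6 and 60.4 for RMCE-1, and 65.3 and 67.9 for RMCE-2. The largest difference between stocks, RMCE-2 against RMCE-1, was a log2 fold change of 0.28 (95% interval -0.02 to 0.58, adjusted p = 0.353), and in RMCE-2 against Canton S it was 0.07 (95% interval -0.23 to 0.37). The ratio of salr to salm reads within a library, which no scaling between libraries can alter, was 0.742 and 0.690 in Canton S, 1.01 and 0.941 with the mir-11 knockout, 1.03 and 0.824 for RMCE-1, and 1.24 and 1.10 for RMCE-2. All 6 other libraries thus had a ratio above both Canton S libraries, and RMCE-2 had the highest pair. An exact permutation test over the 105 ways to divide the 8 libraries into 4 pairs gave p = 0.0476 for differences in this ratio among stocks (0.0952 adjusted over the 2 ratios tested, smallest possible p 0.00952). Without Canton S replicate 1 or 2 it was 0.105 and 0.143, without replicate 1 or 2 of the knockout stock 0.0762 and 0.105, and without RMCE-2 replicate 1 or 2 it was 0.143 and 0.0667, each by exact permutation. Without RMCE-1 replicate 1 or 2 the exact permutation p was 0.00952, the smallest possible, and 0.0381. This ratio test was chosen after the data were seen. It uses the same salr reads as the edgeR test, so it is not separate support. The ratio compares the stocks only, and the lengths of the 2 genes differ.

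**Figure D3:**
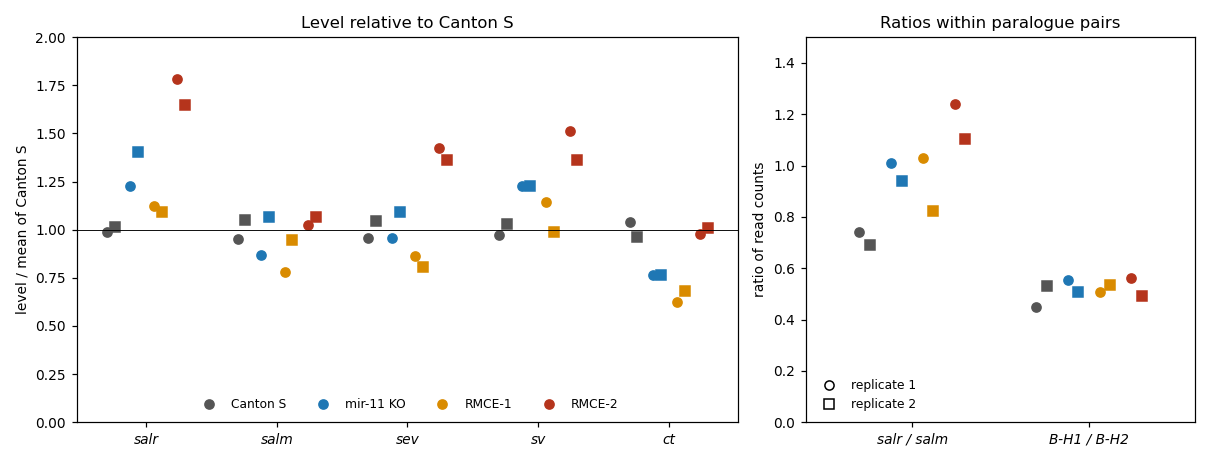
Left, levels of salr, salm, sev, sv and ct in each library divided by the mean of Canton S (linear axis from 0, line at 1). Right, ratio of read counts within the paralogue pairs salr/salm and B-H1/B-H2; circles are replicate 1 and squares replicate 2. The salr/salm ratio runs from 0.690 in Canton S to 1.24 in RMCE-2, while B-H1/B-H2 stays between 0.449 and 0.563.

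By likeness of profile over the 8 libraries (root-mean-square difference of log2 levels centred and scaled within each gene, among genes with a mean of at least 5 CPM), the genes nearest to salr were Eps-15 at a distance of 0.164, rpk at 0.177 and Cow at 0.234. They were the 3 nearest with a larger pseudocount as well. Eps-15, which encodes an endocytic adaptor protein, ran from 94.1 CPM in Canton S to 110 CPM in RMCE-2, a far smaller span than that of salr. The sodium channel gene rpk had 3.36 and 4.46 CPM in Canton S, 10.7 and 11.7 with the mir-11 knockout, 5.13 and 5.32 for RMCE-1, and 33.2 and 19.5 for RMCE-2. Cow, the gene of a secreted Wingless-binding protein, had 70.5 and 67.1 CPM in Canton S and 99.6 and 93.6 in RMCE-2. Only the shape of the profile is alike by this measure, and no relation between these genes was tested.

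The remaining factors of the outer photoreceptors did not pass the test in any pair of stocks. The nuclear receptor gene svp (3R:12258737-12302785, plus strand) had 32.4 and 32.2 CPM in Canton S, 39.6 and 39.0 with the mir-11 knockout, 35.8 and 35.9 for RMCE-1, and 38.1 and 42.1 for RMCE-2. Replicates of svp were nearly equal in 3 stocks and 1.10-fold apart in RMCE-2, and all 6 other libraries lay above both of Canton S. Its log2 fold changes against Canton S were 0.29 with the mir-11 knockout, 0.15 for RMCE-1 and 0.31 for RMCE-2 (SE 0.07 each, adjusted p = 0.0701, 0.251 and 0.0621). When only the libraries of the knockout stock and Canton S were fitted, svp was called (adjusted p = 0.0472). The svp locus also spans CG17738, a small gene on the same strand with 7923 reads over the 8 libraries and no shared exon bases in the annotation. Another gene on that strand, CG44037, shares 115 bp of exon with svp and is absent from the count tables.

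The homeobox gene ro (3R:26876771-26881171, minus strand) was the lowest of the 10 in reads. Its levels were 7.60 and 8.17 CPM in Canton S, 7.28 and 8.85 with the mir-11 knockout, 9.29 and 8.40 for RMCE-1, and 8.28 and 7.98 for RMCE-2. These ranges overlap between all stocks except RMCE-1, which lay above Canton S and RMCE-2. At 98 to 154 reads, counting error alone came to 10.1% of the lowest count, and the largest log2 fold change against Canton S was 0.17 in RMCE-1 (leave-one-out adjusted p from 0.506 to 0.819).

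The Bar genes, homeobox genes that lie 73.3 kb apart on the X chromosome (B-H2 at X:17314581-17324175 and B-H1 at X:17397478-17403278, both on the plus strand) gave no call. B-H1 had 29.2 and 33.1 CPM in Canton S, 35.1 and 33.0 with the mir-11 knockout, 34.8 and 28.8 for RMCE-1, and 37.8 and 35.5 for RMCE-2. B-H2 had 65.0 and 62.3 CPM in Canton S, 63.3 and 65.3 with the mir-11 knockout, 68.8 and 53.9 for RMCE-1, and 67.2 and 72.1 for RMCE-2. RMCE-2 was above Canton S without overlap in both genes, but the test called neither. The ratio of B-H1 to B-H2 reads stayed between 0.449 and 0.563, with no difference among stocks detected by the exact permutation test (p = 0.781, and from 0.419 to 0.990 when single libraries were left out).

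Among the factors of late-recruited cells, lz (X:9284649-9303636, plus strand) had 53.1 and 64.7 CPM in Canton S, 59.9 and 59.9 with the mir-11 knockout, 59.7 and 60.3 for RMCE-1, and 66.3 and 73.1 for RMCE-2. The RMCE-2 libraries were the highest of the 8, with a log2 fold change of 0.24 against Canton S (SE 0.10, 95% interval 0.01 to 0.48, adjusted p = 0.240). That interval holds for 1 test taken alone, and the difference failed the adjustment over all genes. The Bar genes and pros, which lz is known to activate, likewise had no called difference.

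**Figure D4:**
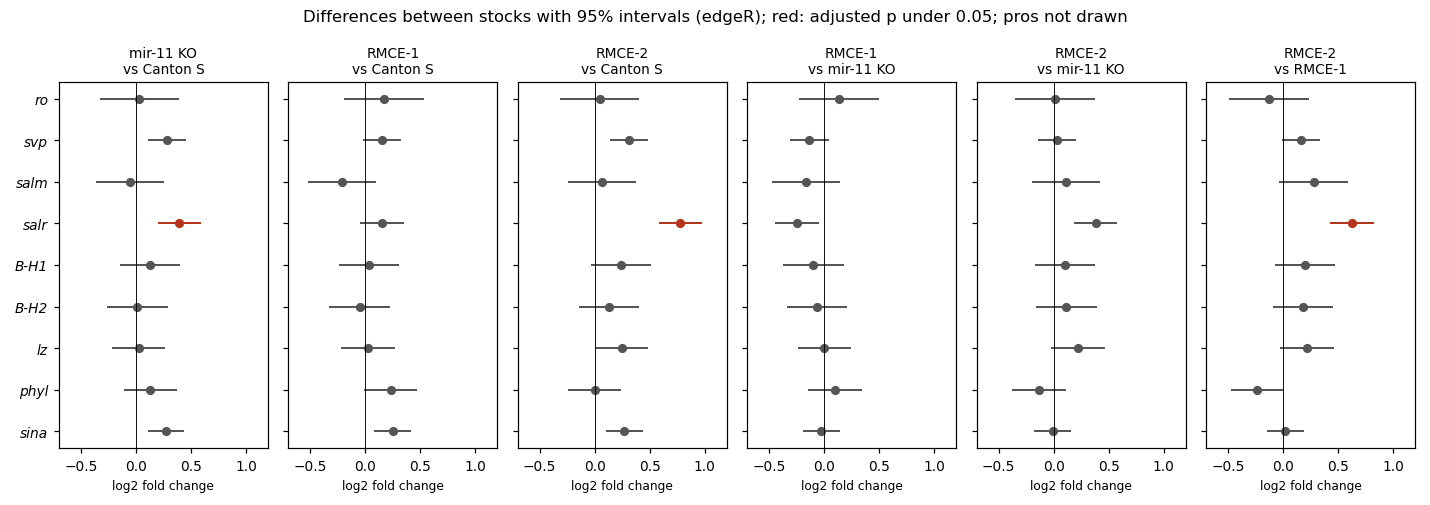
Log2 fold changes of 9 genes (pros is left out for its wide intervals) in the 6 pairs of stocks, with unadjusted 95% intervals from edgeR. The 3 red points, all salr, are those called at an adjusted p under 0.05; of the 51 others none exceeded 0.38 in size, and no interval reached beyond 0.58.

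Neither member of the pair that acts on TTK88 was called. For phyl, on arm 2R, levels were 14.4 and 15.5 CPM in Canton S, 16.5 and 16.3 with the mir-11 knockout, 17.2 and 17.9 for RMCE-1, and 14.0 and 15.8 for RMCE-2. RMCE-1 lay above every library of the other stocks, but the log2 fold change of 0.23 against Canton S was not called (SE 0.10, adjusted p = 0.217). For sina (3L:16853751-16858712, plus strand), levels were 67.0 and 69.4 CPM in Canton S, 81.4 and 83.3 with the mir-11 knockout, 84.3 and 77.5 for RMCE-1, and 79.6 and 84.3 for RMCE-2. All 6 other libraries were above both of Canton S and overlapped one another. The log2 fold changes against Canton S were 0.27, 0.25 and 0.27 (SE 0.07 each) with adjusted p of 0.0706, 0.0837 and 0.0855, in comparisons that share the Canton S libraries. In the knockout stock sina was called when only the 2 stocks compared were fitted (adjusted p = 0.0379) and when RMCE-1 replicate 1 or 2 was left out (lowest adjusted p 0.0469). The opsin gene Rh4 lies within the sina span on the other strand and had 28 reads over all 8 libraries, against 904 to 1522 reads of sina in each.

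In all, 3 of the 10 genes (svp, salr and sina) had all 6 other libraries above both Canton S libraries, beside 12.3% of all genes tested, and none had all 6 below, beside 10.7%. Because the 3 comparisons with Canton S share its libraries, the order shows 1 contrast and not 3.

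The prospero gene pros (3R:11328480-11407627, plus strand) stood apart from the other 9 by its spread between replicates. Canton S had 247 and 80.4 CPM, the knockout stock 142 and 27.4, RMCE-1 31.8 and 74.1, and RMCE-2 30.3 and 231. The highest library was 9.02-fold above the lowest, the 2 libraries of each stock lay far apart, and the groups overlapped except RMCE-1 and Canton S. Replicates differed 3.07-fold in Canton S, 5.17-fold in the knockout stock, 2.33-fold in RMCE-1 and 7.62-fold in RMCE-2, whereas in the other 9 genes no pair of replicates differed by more than 0.35 on the log2 scale. This put pros at the 98.6, 99.6, 96.3 and 99.8 percentile of replicate differences among all genes tested, and its coefficient of variation between replicates was 85.2%, against a common value of 20.6%. No pair of stocks was called, and the log2 fold change of RMCE-1 against Canton S, -1.63 (SE 1.40), had a 95% interval of -5.37 to 2.10. That interval takes in changes of several fold in either direction.

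Within its stock, the library higher in pros was replicate 1 for Canton S and the knockout stock, and replicate 2 for RMCE-1 and RMCE-2. The one of RMCE-1, at 74.1 CPM, was still below the lower library of Canton S, at 80.4 CPM. Beside R7 and cone cells, pros is known from neurons and glia of the larval brain, where it drives neuroblast daughters to differentiate, so markers of those cells are given for the same libraries. Of 7 neuroblast genes, wor and nab had the replicate order of pros in all 4 stocks, and among 7 glial genes repo and Eaat1 did. Of 8 genes of differentiating photoreceptors fne alone did, and of the other 9 fate genes only svp did, by at most 0.14 on the log2 scale. Over all other genes tested the share was 7.77%. Named after their values were seen, the neuroblast genes mira and ase and the glial genes gcm and wrapper had the order of pros in every stock except RMCE-1. The other neuroblast and glial genes listed (dpn, insc, grh, moody, loco and nrv2) departed from that order in stocks other than RMCE-1. The neuroblast gene wor had 5.28 and 0.376 CPM in Canton S, 4.65 and 1.19 with the mir-11 knockout, 1.15 and 1.97 for RMCE-1, and 1.15 and 4.35 for RMCE-2. Its levels are low in every library. The pan-neuronal gene fne had 63.0 and 12.4 CPM in Canton S, 41.8 and 6.24 with the mir-11 knockout, 9.30 and 12.5 for RMCE-1, and 7.82 and 70.6 for RMCE-2. The other pan-neuronal gene listed, elav, had 194 and 158 CPM in Canton S and 204 and 168 with the mir-11 knockout. Its levels were 181 and 148 CPM for RMCE-1, and 181 and 220.5 for RMCE-2. Replicates of elav thus had the order of pros in every stock except RMCE-1, with smaller log2 steps than those of fne. Summed over all 7 genes, neuroblast markers ran from 295 to 332 CPM and glial markers from 369 to 403 CPM. Of the neuroblast sum, grh, which epithelia express too, gave 213 to 253 CPM. Most of the glial sum came from nrv2 and loco, with mean levels of 192 and 127 CPM. Both sums therefore say little about genes at low levels, such as wor or Eaat1 (1.25 to 9.92 CPM). Whether RNA of brain or nerve tissue has a part in the pros values was not tested.

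**Figure D5:**
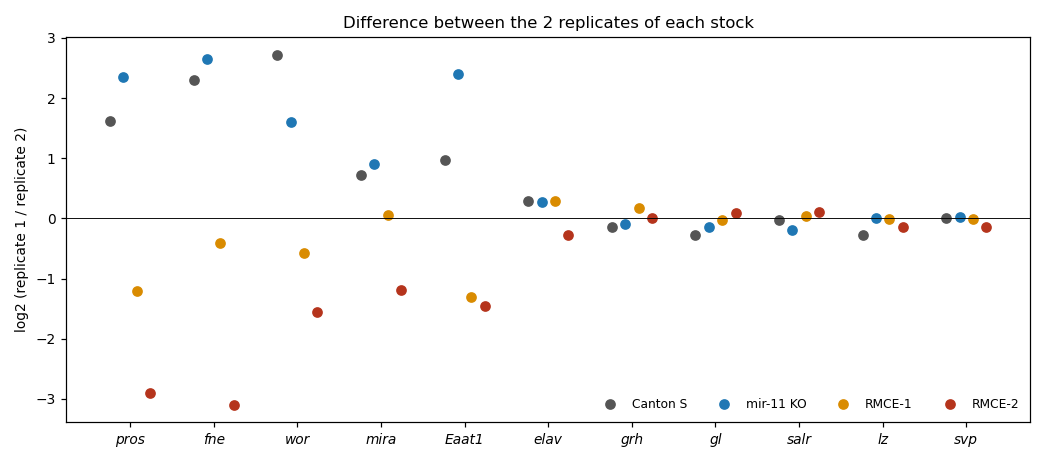
Log2 ratio of replicate 1 to replicate 2 in each of the 4 stocks (colours) for pros, for neuronal, neuroblast and glial genes (fne, wor, mira, Eaat1, elav, grh), for gl and for 3 other fate genes. The points of pros, fne, wor and Eaat1 are positive in Canton S and the knockout stock and negative in both RMCE stocks, while salr, lz and svp lie near 0.

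Chosen after its values were seen, pros was also compared in profile with all genes of at least 5 CPM. The nearest were wry at a distance of 0.146, Lrp4 at 0.159 and VGlut, the vesicular glutamate transporter of neurons, at 0.188. With a pseudocount of 2 they were VGlut at 0.149, dati at 0.170 and Lrp4 at 0.171, followed by wry at 0.182. VGlut had 24.8 and 9.68 CPM in Canton S, 14.2 and 1.07 with the mir-11 knockout, 2.24 and 5.57 for RMCE-1, and 1.07 and 20.3 for RMCE-2. Beside VGlut, 9 other genes of the 11067 had the replicate order of pros with at least a 2-fold step in every stock, among them the nicotinic receptor gene nAChRalpha2, the glutamate receptor gene KaiR1D, the neuroblast RNA gene lncRNA:cherub, the fat body lipoprotein gene apolpp and the antimicrobial peptide genes DptB and CecC. Of 7 fat body markers tested, 6 had the replicate order of pros, but only 1 had it with the 2-fold step in every stock. The sum of the 7 ran from 64.4 CPM in RMCE-1 replicate 1 to 8438 in RMCE-1 replicate 2. The part of fat body RNA was not tested either.

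The signalling genes that recruit R1 to R7 gave few calls among the 13 of 15 that were tested. Of these, 0 were called in the knockout stock against Canton S, 1 fell in RMCE-1 and 1 rose in RMCE-2, and RMCE-2 had 1 above RMCE-1. The receptor gene sev, which receives the Boss signal in the R7 precursor, had 177 and 193 CPM in Canton S, 177 and 203 with the mir-11 knockout, 160 and 149 for RMCE-1, and 263 and 252 for RMCE-2. Like salr, sev was highest in both RMCE-2 libraries, without overlap with any other. Its log2 fold change was 0.48 over Canton S (SE 0.09, adjusted p = 0.0328) and 0.74 over RMCE-1 (SE 0.09, adjusted p = 0.0169). With single libraries left out, the adjusted p ran from 0.0341 to 0.175 and from 0.0286 to 0.0968, passing in the first only without a library of RMCE-1, and in the second only without a library of Canton S or RMCE-1 replicate 1. The receptor gene N fell by 0.39 on the log2 scale in RMCE-1 against Canton S (adjusted p = 0.0387), a call lost in 8 of 8 such repeats (adjusted p from 0.0598 to 0.127).

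Of the 3 tested partners in the degradation of TTK88 (ttk itself, ebi and eff), none was called in any pair of stocks, nor were the 8 photoreceptor differentiation genes, of which Fas2 and nrm had the highest mean levels, 412 and 251 CPM. Among 7 genes of the furrow and R8, only E(spl)mdelta-HLH, a Notch target, was called, at 0.60 higher in RMCE-1 than in Canton S on the log2 scale (adjusted p = 0.00581, or 0.0533 with only those 2 stocks fitted). The R8 selector ato had 41.0 and 43.6 CPM in Canton S and 39.4 to 52.9 CPM elsewhere.

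The 10 genes of cone cells, pigment cells and later subtypes held calls of 2 genes. Cut (ct), a cone cell factor, had 134 and 124 CPM in Canton S, 98.6 and 98.7 with the mir-11 knockout, 80.5 and 87.6 for RMCE-1, and 126 and 130 for RMCE-2. On the log2 scale it fell by 0.39 in the knockout stock (adjusted p = 0.0268) and by 0.62 in RMCE-1 (adjusted p = 0.0057, or 0.0516 with only those 2 stocks fitted) against Canton S, and was 0.61 higher in RMCE-2 than in RMCE-1 (adjusted p = 0.0169). The knockout call was lost without any 1 library of the 2 stocks compared (adjusted p up to 0.196), and the last one without a library of the knockout stock or RMCE-2 (up to 0.0935). The Pax2 gene sv, active in cone and primary pigment cells, rose by 0.52 on the log2 scale in RMCE-2 against Canton S (adjusted p = 0.0379), from 23.04 and 24.5 to 35.9 and 32.4 CPM, a call lost when any 1 library other than those of RMCE-1 was left out (adjusted p up to 0.199).

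Levels of some marker genes of hemocytes and of disc regions differed between stocks as well. Whether tissue content has a part in these levels or in the salr result was not tested. The summed level of hemocyte markers was 573 and 808 CPM in Canton S, 415 to 498 with the mir-11 knockout, 457 to 500 for RMCE-1, and 251 to 260 for RMCE-2, where salr was highest; 3 of 9 tested fell in RMCE-2 against Canton S, and on the log2 scale Pxn fell by 1.59, eater fell by 1.37 and PPO2 fell by 3.32 (adjusted p = 0.00545, 0.00801 and 0.00973). The markers did not all move one way: NimC1 had 2.47 and 4.52 CPM in Canton S and 8.44 and 8.42 in RMCE-2, without a call there, and was called higher in the knockout stock (log2 fold change 1.49, adjusted p = 0.0332), a call lost in 5 of 8 repeats with single libraries left out. The call of Pxn was lost without RMCE-2 replicate 1 (adjusted p = 0.0675), that of eater without RMCE-2 replicate 1 or 2 (0.0863 and 0.0698), and that of PPO2 without Canton S replicate 1 or RMCE-2 replicate 1 (0.0568 and 0.0579). For antennal markers the sum was 237 and 238 CPM in Canton S and 239 to 240 in RMCE-2, against 291 and 292 with the mir-11 knockout. The summed eye field genes were 866 and 944 CPM in Canton S, 1017 and 1023 with the mir-11 knockout, 879 and 930 for RMCE-1, and 871 and 875 for RMCE-2. They were thus highest in the knockout stock, where salr was also above Canton S, and overlapped between Canton S and RMCE-2.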

How the data were processed

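The authors deposited raw read counts per gene, 1 table per library, with no normalization, per the labels. The submitters' processing notes name CASAVA 1.8.2, FastQC, TopHat2, featureCounts and Subread. Libraries were strand-specific, depleted of ribosomal RNA and read from a single end, per the labels' protocols. No source used here gives the genome build, the annotation or the strand option of the counting, so reads of overlapping genes on opposite strands may not be separated. Of 15682 gene identifiers, 15002 matched a symbol in the Ensembl annotation of BDGP6.54.

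All 8 libraries entered 1 fit in edgeR 4.0.16 (R 4.3.3), with TMM scaling by factors of 0.9711 to 1.036. The filterByExpr filter kept 11068 genes, the 10 fate genes among them, and left out 4614. Stock means were compared by robust quasi-likelihood tests on 4 residual degrees of freedom, and p-values were adjusted by the Benjamini-Hochberg method across all 11068, with 0.05 as the threshold for a call. On simulated counts for 11068 genes, 52 to 66% of 2-fold and 87 to 97% of 4-fold changes were recovered over the comparisons, and at most 5.77% of calls were false. The simulated spread followed only the level of a gene, so spread particular to a gene, such as the wide one of pros, was not simulated. These shares may therefore differ in the real data. Changes as small as that of salr were not simulated.

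The fate genes and the gene lists for context were chosen with earlier results of these data known. The 14 context lists hold 127 symbols, of which 117 matched; the others were not analysed here. Named genes are the 10 fate genes, up to 4 called genes of a list with the smallest adjusted p (or its highest 2 by mean level), and the 3 nearest profiles of a called fate gene on log2(CPM + 0.5); others are said to be chosen after their values were seen. Replicates were counted separately, since the counts of each pair differed by more than sampling noise (chi-square per degree of freedom of 9.5 to 50). The p-values measure the spread between biological replicates, n = 2 per stock. Alternatives were DESeq2 1.42.0, DESeq2-type scaling, no filter, a replicate block, only the libraries compared, and leaving out 1 library, or Canton S replicate 1 with RMCE-1 replicate 2, which an earlier analysis had set apart. The tests of the salr/salm and B-H1/B-H2 ratios and their alternatives were chosen after seeing the data.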

Additional observations from a re-analysis of the deposited data

How the results depend on the processing

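Reported log2 fold changes of fate genes never reversed: 245 repeats kept their side of the threshold, 16 lost a call and 5 gained one. Causes were not tested. Counts are given for any difference, then mir-11 knockout, RMCE-1 and RMCE-2 over Canton S, RMCE-1 and RMCE-2 over the mir-11 knockout, and RMCE-2 over RMCE-1; the reported ones were 607, 526, 671, 398, 39, 64 and 186 genes, and 1, 1, 0, 1, 0, 0 and 1 fate genes. Counts within 1.5 times of these are not listed. DESeq2 called 1222 genes for any difference, 620 for the third comparison with Canton S, then 143, 254 and 422, and 1 fate gene (salr) in RMCE-2 over the mir-11 knockout. Deviations of same-numbered replicates correlated at 0.324 between the mir-11 knockout and Canton S, and at -0.354 to -0.111 in the other pairs of stocks. The numbers thus gave no pairing that held across stocks, and whether libraries share a batch was not tested. With a replicate block, genes called were 286, 318, 338, 253, 16, 9 and 55, and fate genes 0 in the mir-11 knockout over Canton S and 0 in RMCE-2 over RMCE-1. With only the libraries compared, pairs with Canton S gave 1078, 143 and 189 genes, RMCE-2 gave 99 over the mir-11 knockout and 17 over RMCE-1, and fate genes were 3 (salr, svp, sina) in the mir-11 knockout over Canton S and 0 in RMCE-2 over RMCE-1. With both Canton S replicate 1 and RMCE-1 replicate 2 left out, genes were 304, 346, 144 and 260, then 105 and 68 in the last 2 pairs, and fate genes 0 for any difference (salr adjusted p = 0.0585), for the mir-11 knockout over Canton S and for RMCE-2 over RMCE-1. Leaving out single libraries gave 124 to 853, 41 to 677, 155 to 651, 94 to 514, 4 to 177, 3 to 78 and 18 to 274 genes, and 0 to 2 fate genes in the mir-11 knockout over Canton S, 0 to 1 in RMCE-2 over RMCE-1 and no change in the others. Of 28 fold changes of other named genes, none reversed; 230 repeats kept the call and 162 lost it. With 2 libraries per stock, changes below 2-fold are often missed.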

Other observations

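Genes that respond to the moulting hormone ecdysone, which times the larval stages, gave calls in several pairs of stocks. Of 13 tested, 6 were called lower and 0 higher in the knockout stock against Canton S (4.75% of all genes were called), 6 were called lower and 1 higher in RMCE-1 (6.06%), and 0 were called in RMCE-2 (3.6%). Between RMCE-2 and the knockout stock, 2 were called higher in RMCE-2, and the same number against RMCE-1: the nuclear receptor genes Hr3 and Hr4 each time. The Hr3 log2 fold change was -1.96 in the knockout stock against Canton S (adjusted p = 0.00669) and 2.19 in RMCE-2 against the knockout stock (adjusted p = 0.0210), and that of Hr4 was -1.35 (adjusted p = 0.0120) and 1.37 (adjusted p = 0.0414). With single libraries left out, the highest adjusted p of these were 0.0421 and 0.119 for Hr3, and 0.0607 and 0.185 for Hr4. The summed level of the list was 3197 and 3508 CPM in Canton S and 2173 and 2313 with the mir-11 knockout. It was 2409 and 2686 CPM for RMCE-1, and 3026 and 3509 for RMCE-2. Of this sum, ImpE2 alone gave 1262 CPM on average over the libraries, so the sum says little about genes such as Hr3 and Hr4. The part of developmental timing in the salr values was not tested.

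Heat shock genes had no call in any pair of 4 stocks, yet their summed level was 5009 CPM in 1 library of RMCE-1 and 42.8 in the other, and 137 and 835 in RMCE-2, against at most 52.8 in Canton S. The salivary gland sum ranged from 170 CPM in RMCE-1 to 4696 in its other library, with no call either. Among antennal genes, dan rose by 0.48 in the knockout stock (adjusted p = 0.00642) and by 0.39 in RMCE-1 (adjusted p = 0.0130) against Canton S. The glial gene repo fell by 0.64 in RMCE-1 against Canton S (adjusted p = 0.0313). When single libraries were left out, the highest adjusted p was 0.0844 and 0.0811 for dan, without a library of the knockout stock and of Canton S in turn, and 0.152 for repo.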
